A study of Mus musculus with 9 samples.

Results

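A mouse embryonic stem (ES) cell line carrying the PKM1 knock-in was set against a wild type ES line on each of 3 days, which took 6 of the 9 arrays of the series. The PKM1 knock-in line (PKm1KI in the labels) and the wild type line were each sampled undifferentiated in medium with LIF (day 0) and as embryoid bodies in floating culture without LIF at day 3 and day 7. The other 3 arrays hold a PKM2 knock-in line (PKm2KI) on the same days and entered the model to share its estimate of the spread. Every line and day has 1 array, so the 3 days served as the repeats, and each genotype is 1 cell line. A difference here is therefore one between these lines, and its p-value measures only the spread between days. The labels give no ES strain, clone number, feeder cells or culture repeat.

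Pkm encodes pyruvate kinase M, the enzyme of the last step of glycolysis, which turns phosphoenolpyruvate into pyruvate. Its transcript is spliced with either of a pair of mutually exclusive exons, giving PKM1 or PKM2. PKM2 is the form usually found in embryonic and proliferating cells and can be allosterically tuned, while PKM1 is typical of differentiated tissues such as muscle and brain. LIF keeps mouse ES cells undifferentiated, and its removal in embryoid bodies lets them form the germ layers and the extraembryonic endoderm.

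The share of spots well above background ran between 54.2% and 61.6% of an array, with 0 saturated. On days 0, 3 and 7 it was 54.2%, 57.1% and 60.9% in the PKM1 knock-in line against 61.4%, 59.5% and 61.6% in wild type. It was thus lower in the PKM1 knock-in line on each day. The 75th percentile before scaling was 373, 507 and 524 in the PKM1 knock-in line against 583, 451 and 616 in wild type. Array brightness thus differed between the lines, and its part in the differences below was not tested. Values are log2 of the scaled signal of a single-colour Agilent array, so they compare lines for a given probe and not genes with each other. PKM1 knock-in and wild type arrays of the same day correlated at 0.975 on day 0, 0.975 on day 3 and 0.947 on day 7 over 15014 genes. The PKM1 knock-in day 7 array lay farthest out on the first principal component, at -108, with wild type day 7 at -56.6. No PKM1 knock-in array shared a slide with the wild type array of its day. The day 0 and day 7 arrays of the PKM1 knock-in line and the wild type day 3 array were on slide 2, and the other 3 were on slide 1.

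Pkm itself was measured by 1 probe, and no source used here places that probe against the alternative exons, so it does not check the knock-in. Its log2 signal on days 0, 3 and 7 was 13.56, 14.72 and 13.90 in the PKM1 knock-in line against 13.66, 16.10 and 14.67 in the wild type line. The PKM1 knock-in value was the lower on all 3 days, but the ranges overlapped and the difference of -0.75 ± 0.35 (SE, n = 3 days) did not pass the test (limma adjusted p = 0.477). The probe of Pklr, the liver and red cell pyruvate kinase, was not well above background on any of the 6 arrays. Xist was at most 4.0 in the PKM1 knock-in line against 4.23 in the wild type line, and was not well above background on those arrays.

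The members and gene lists were chosen with earlier results of these data known. Over all days, 2 of 15014 genes (0.0133%) passed an adjusted p of 0.05 in limma with Benjamini-Hochberg adjustment, and both rose in the PKM1 knock-in line. They were Mest, a paternally expressed imprinted gene for a protein of the hydrolase family, and Nudt12, which encodes a peroxisomal enzyme that cleaves NADH. At the unadjusted p of 0.05, 863 genes (5.75%) were higher and 956 (6.37%) lower in the PKM1 knock-in line. Among 14480 probes with no gene symbol 2 (0.0138%) were called. The typical precision was a standard error of 0.26 on the log2 scale.

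Mest had log2 signals of 11.18, 12.06 and 12.16 on days 0, 3 and 7 in the PKM1 knock-in line against 4.45, 4.79 and 6.27 in the wild type line. It was bright on every PKM1 knock-in array and close to the lower end of detection in wild type, with a gap of 5.89 or more on each day. The estimate was 6.63 ± 0.31 (SE, n = 3 days), a 99.1-fold difference (limma adjusted p = 0.00346, higher on 3 of 3 days). The other 2 Mest probes agree in direction: the dimmest gave 7.46, 7.95 and 8.06 in the PKM1 knock-in line against 2.32, the floor, on all 3 days in wild type. Mest was not called when only the 6 arrays of these lines were fitted (limma adjusted p = 0.055), nor without day 0 (0.157) or day 3 (0.407) of all lines, without the PKM1 knock-in day 3 array (0.0629) or without the wild type day 0 array (0.0670).

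Nudt12 had log2 signals of 6.33, 6.61 and 6.41 in the PKM1 knock-in line against 2.65, 2.32 and 2.49 in the wild type line, where its probe was not well above background on any day. The signal was almost level over the 3 days in the PKM1 knock-in line, and was at least 5.45-fold higher there, taking the detection limit of each array for wild type. The fitted difference was 3.96 ± 0.27 (SE, n = 3 days, limma adjusted p = 0.0229). Its wild type side lies near the floor and the probe passed the filter through the knock-in arrays, so the estimate, its error and the call rest on values below detection, and the call was lost with no filter (limma adjusted p = 0.119) or a floor of 1 (limma adjusted p = 0.0898). Nudt12 was called in 8 of 23 settings, among them the main one, and in none of the 9 fits that left out a day or an array. With the slide as a further block the estimates were 6.79 for Mest (limma adjusted p = 0.0307) and 4.04 for Nudt12 (limma adjusted p = 0.194), in a fit that could not use the PKM2 knock-in day 7 array, alone on its slide.

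**Figure D1:**
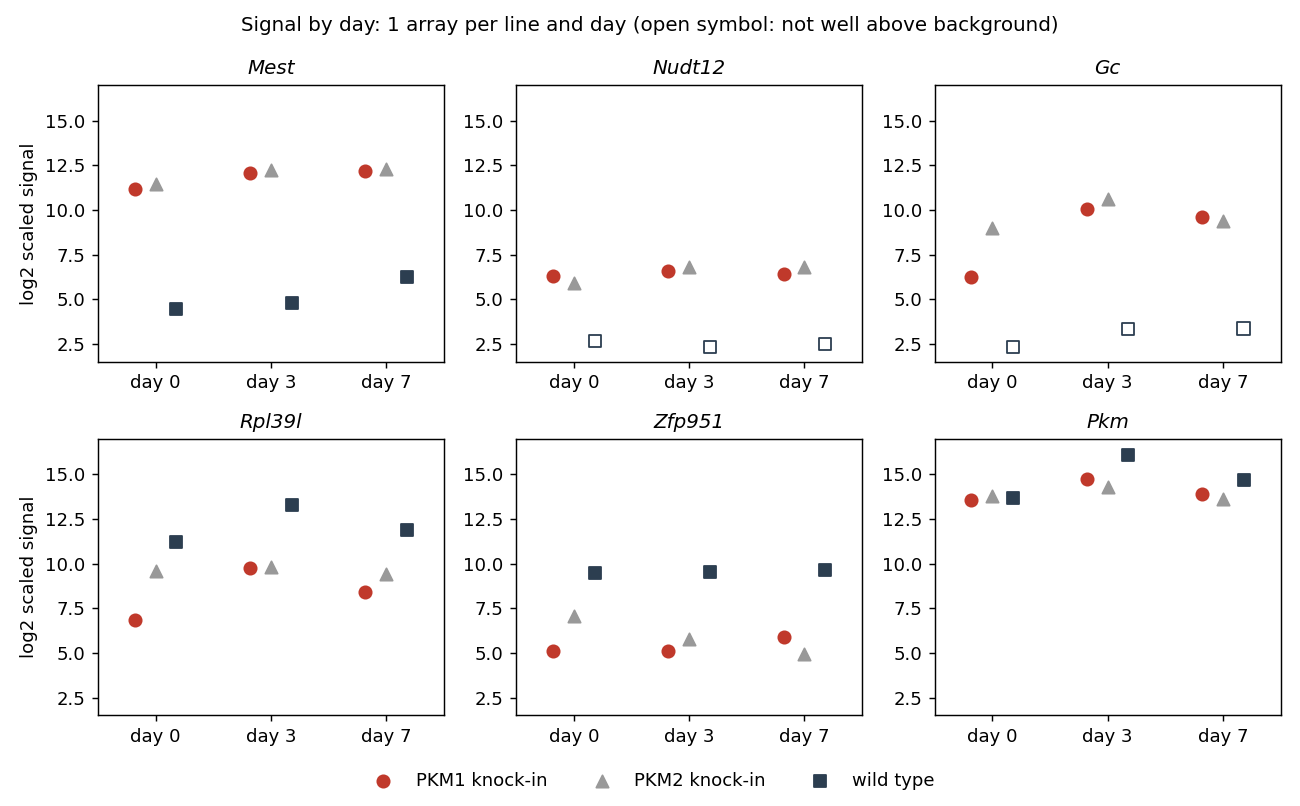
Log2 scaled signal of 6 genes on days 0, 3 and 7, with 1 array per point, for the PKM1 knock-in line (circles), the PKM2 knock-in line (triangles) and the wild type line (squares). Mest lies between 11.18 and 12.16 in the PKM1 knock-in line but between 4.45 and 6.27 in wild type, and open symbols, as for Nudt12 in wild type, are not well above background.

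Because Mest carries the largest fitted difference and its expression in mouse depends on DNA methylation of the parental alleles, the reference sequence around its annotated starts is shown. The RefSeq table (GRCm38.p6, 250 bases before to 50 after a start) matched 1 of the 2 called genes and lists 3 starts for Mest on chromosome 6. The letters searched were CG, which read the same on the other strand and are in capitals. The upstream window, chr6:30733256-30733555 on the plus strand, holds 8, a number that 48.6% of the 32851 promoters in the table reach. The downstream window, chr6:30737800-30738099 on the plus strand, holds 17, which 31.4% reach, and the third listed start lies within it. These are letters of the reference and not measurements of these lines.
Mest upstream start: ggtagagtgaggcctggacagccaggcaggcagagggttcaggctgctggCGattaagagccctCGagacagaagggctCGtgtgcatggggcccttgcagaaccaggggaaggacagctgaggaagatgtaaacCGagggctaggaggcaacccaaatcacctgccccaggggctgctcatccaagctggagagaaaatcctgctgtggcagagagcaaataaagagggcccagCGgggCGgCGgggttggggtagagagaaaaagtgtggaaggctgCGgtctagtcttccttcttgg
Mest downstream start: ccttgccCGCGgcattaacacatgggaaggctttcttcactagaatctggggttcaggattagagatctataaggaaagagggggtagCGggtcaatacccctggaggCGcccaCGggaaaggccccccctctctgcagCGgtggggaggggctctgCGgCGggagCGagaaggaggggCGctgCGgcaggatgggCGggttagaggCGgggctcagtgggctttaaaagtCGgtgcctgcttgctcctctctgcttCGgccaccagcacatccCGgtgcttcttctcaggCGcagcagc

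In 735 genes (4.9%) all 3 PKM1 knock-in values lay above all 3 wild type values, and in 769 (5.12%) all lay below. An exact permutation test of 3 against 3 cannot go below p = 0.1, so these counts describe separation and are no calls. The genes in each direction with the largest smallest daily difference, Mest and Nudt12 included, are described here, and apart from those 2 their adjusted p ran between 0.0917 and 0.453 in limma.

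Gc, the vitamin D binding protein, had log2 signals of 6.22, 10.04 and 9.60 in the PKM1 knock-in line against 2.32, 3.35 and 3.37 in wild type, where it was not well above background on any day. This is at least a 24.6-fold difference (log2 5.61 ± 0.61, SE, n = 3 days, limma adjusted p = 0.104). The estimate, its error and its p-value rest on wild type values below detection, and the estimate went down to 2.88 in the alternatives. Slc15a2, a proton-coupled peptide transporter, gave 9.48, 8.24 and 7.19 in the PKM1 knock-in line against 5.87, 3.59 and 2.32 in wild type. Its level went down with time in the PKM1 knock-in line. In wild type it was well above background on day 0 alone, and with the detection limit for the other days it was at least 13.0-fold higher in the PKM1 knock-in line over the 3 days.

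Ufsp2, a protease that matures the ubiquitin-like protein UFM1, gave 10.97, 11.18 and 11.83 in the PKM1 knock-in line against 8.68, 9.39 and 8.46 in wild type. It was bright in both lines, and the gap was 2.49 ± 0.31 (SE, n = 3 days, limma adjusted p = 0.113). Tex13b was not well above background on the wild type arrays and reached 8.16 on day 7 in the PKM1 knock-in line. The melanocortin receptor gene Mc3r (2.32 ± 0.64), Pdcl2 (1.87 ± 0.63), Rassf6 (2.5 ± 0.64) and the kinase gene Bmp2k (2.49 ± 0.68) were also in this group, all higher on 3 of 3 days. Mc3r, Rassf6 and Bmp2k were not well above background on every wild type array. Their estimates and errors rest in part on values below detection, and went down to 1.30, 1.33 and 1.45 in the alternatives.

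Eif2s3y, the Y-linked copy of a translation initiation factor subunit, was also in this group. Its log2 signal was 8.13, 8.33 and 9.13 in the PKM1 knock-in line against 6.36, 5.76 and 4.36 in wild type, and was well above background on all 6 arrays. The gap was widest on day 7, where the wild type value was lowest, and the difference of 3.03 ± 1.37 (SE, n = 3 days) did not pass the test (limma adjusted p = 0.453). In the PKM2 knock-in line it went from 11.75 on day 0 to 4.38 on day 7. Ddx3y, another Y-linked gene, gave 4.84, 3.19 and 5.30 in the PKM1 knock-in line against 5.39, 2.32 and 2.32 in wild type, and its estimate of 1.1 ± 1.26 (SE, n = 3 days) turned to -0.39 without the PKM1 knock-in day 7 array. The Y-linked Kdm5d, Zfy1 and Uty were not well above background on any of the 6 arrays, and Usp9y on the wild type day 0 array alone. Mean differences of the brighter Uty probe (-0.95) and of Usp9y (-0.26) were negative, so Y-linked genes did not share a direction.

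Among the separated genes that were lower in the PKM1 knock-in line, Zfp951, a zinc finger gene, and Rpl39l, a copy of the gene for ribosomal protein L39, had the largest smallest daily difference. Zfp951 gave 5.09, 5.12 and 5.86 in the PKM1 knock-in line against 9.45, 9.52 and 9.63 in wild type, an 18-fold difference (log2 -4.17 ± 0.52, SE, n = 3 days, limma adjusted p = 0.113). Rpl39l gave 6.85, 9.77 and 8.39 in the PKM1 knock-in line against 11.22, 13.29 and 11.86 in wild type, a 13.8-fold difference. Rpl39l followed the same course over days in both lines, highest on day 3, at a lower level in the PKM1 knock-in line. Both were called with normexp background correction, with adjusted p of 0.0198 for Zfp951 and 0.0449 for Rpl39l.

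Fbp2, a fructose bisphosphatase that runs a step of glycolysis in reverse, gave 4.86, 4.74 and 3.58 in the PKM1 knock-in line against 8.34, 7.80 and 5.93 in wild type. Lrrn2, a leucine-rich repeat membrane protein gene, gave 6.32, 4.66 and 6.25 in the PKM1 knock-in line against 8.87, 7.48 and 9.37 in wild type. Of all genes that were not called, these 2 had the smallest adjusted p (0.0917 each in limma), with log2 differences of -2.96 ± 0.28 for Fbp2 and -2.83 ± 0.26 for Lrrn2 (SE, n = 3 days). Neither was well above background on every PKM1 knock-in array, so these values rest in part on signals below detection. In the alternatives the estimates shrank to -1.34 for Fbp2 and -1.67 for Lrrn2.

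Nefm, a neurofilament subunit gene, was not well above background on any PKM1 knock-in array. It gave 9.97, 6.19 and 7.42 in wild type, so it was at least 12.1-fold lower in the PKM1 knock-in line. The same held for Dmgdh, the mitochondrial dimethylglycine dehydrogenase (at least 6.71-fold lower), Kcne2 (at least 3.03-fold), Cyp2b10 (at least 2.87-fold) and Clca3a2 (at least 2.33-fold). Mlana, a melanosome protein gene (-3.57 ± 0.60), and Gpr1, a chemerin receptor gene (-3.05 ± 0.42), were also lower on 3 of 3 days. Neither was well above background on every PKM1 knock-in array. Their estimates shrank to -1.82 for Mlana and -1.77 for Gpr1 in the alternatives.

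**Figure D2:**
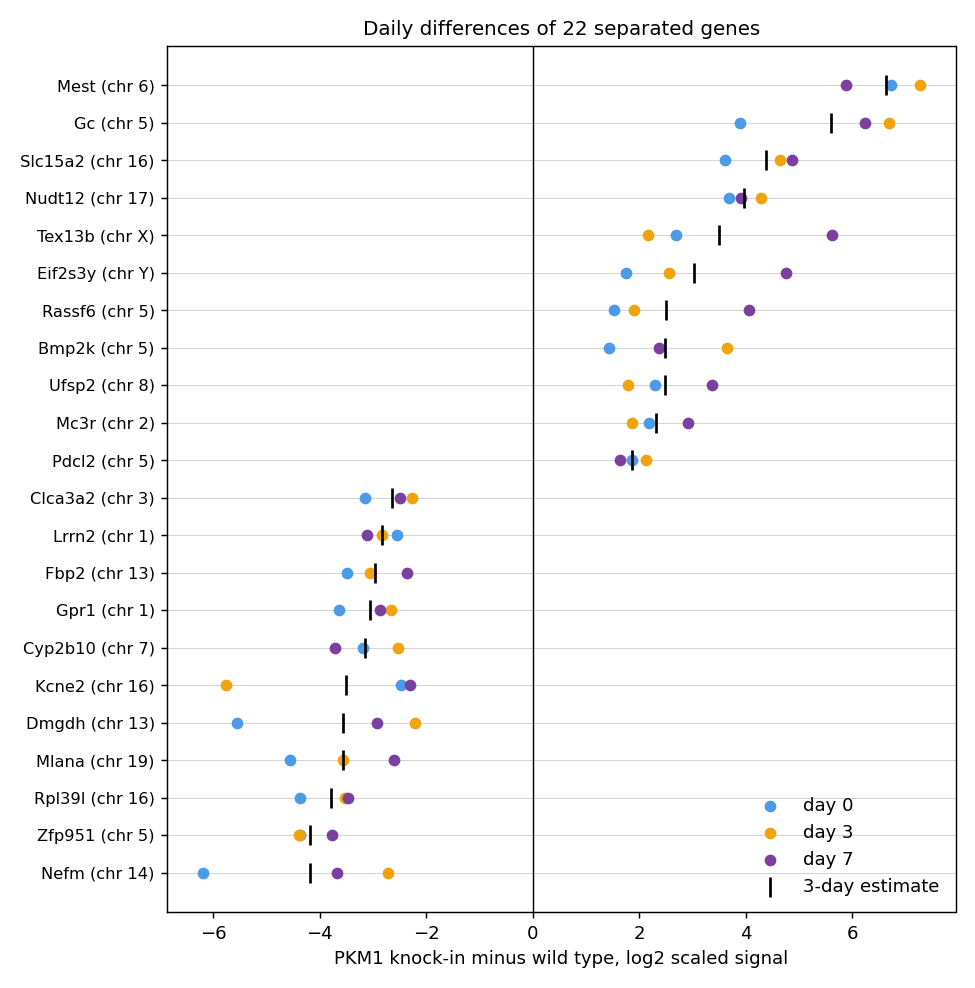
PKM1 knock-in minus wild type, in log2 scaled signal, for 22 genes taken by the separation rule, with 1 point per day and a bar at the 3-day estimate. The 3 points of a gene lie on the same side of 0 by construction, and the chromosome stands after each symbol.

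The genes that were higher in the PKM1 knock-in line were unevenly placed along the genome. Of the 863 genes higher at the unadjusted p of 0.05, 204 lay on chromosome 6 and 178 on chromosome 8, together 44.3%, whereas 1520 of the 15014 genes tested lie there. Of the 956 lower genes, 4.50% lay on these chromosomes. This pattern was noticed in these data, so it is described without a test.

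The median log2 difference over all genes was 0.08, 0.00 and -0.05 on days 0, 3 and 7. Over the 716 genes of chromosome 6 it was 0.38, 0.33 and 0.30, and over the 804 genes of chromosome 8 it was 0.38, 0.36 and 0.25. Both chromosomes stood above every other one on each day: the highest median elsewhere was 0.10 on day 0, 0.10 on day 3 and 0.08 on day 7. On chromosome 6, 48.3% of genes were higher on all 3 days, and on chromosome 8, 48.9%, against 19.9% of all genes. Among 7897 probes named only by a chromosome region (mm9 names), the same 2 chromosomes had the highest medians, 0.07 for chromosome 6 and 0.04 for chromosome 8, with -0.09 over all such probes.

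**Figure D3:**
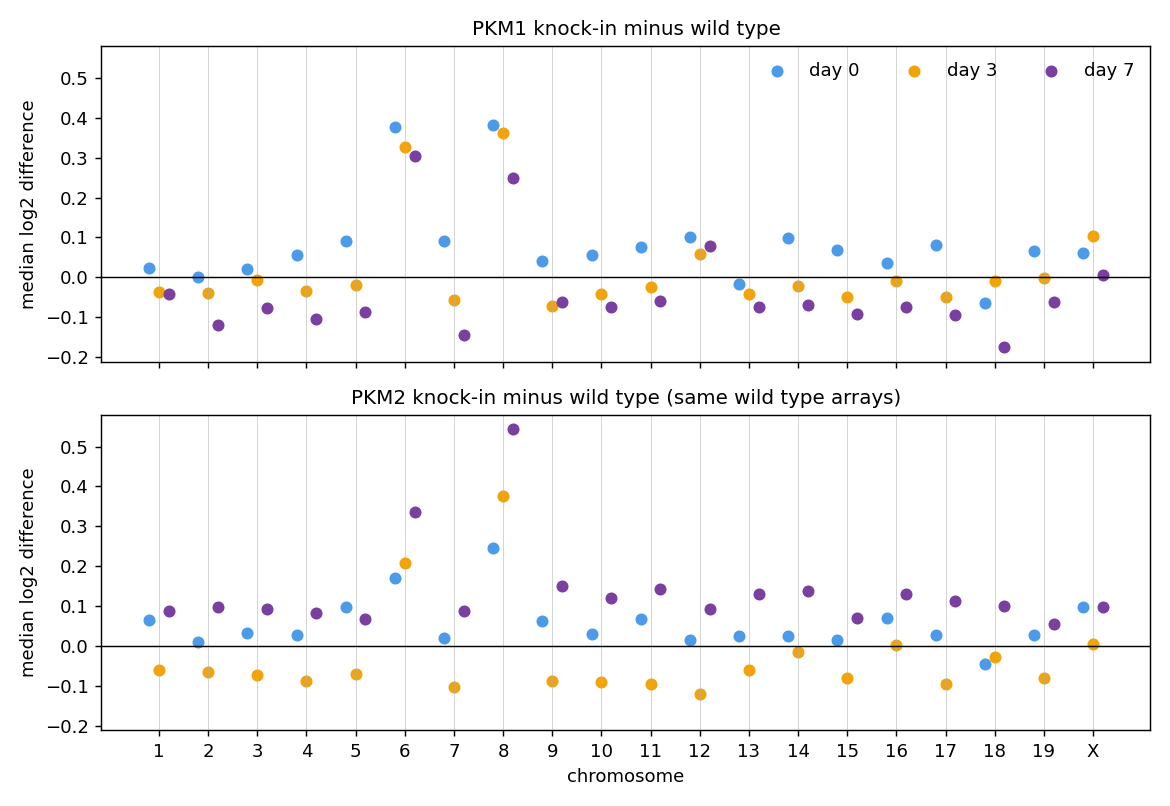
Median log2 difference over the genes of each chromosome, with 1 point per day, for PKM1 knock-in minus wild type (upper) and PKM2 knock-in minus wild type (lower), which share the wild type arrays. Chromosomes 6 and 8 lie between 0.25 and 0.38 on all 3 days in the upper panel.

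Along each chromosome the measured genes were grouped in windows of 20 consecutive genes, 740 in all. In 47 windows the median difference was more than 0.2 above that of all genes on all 3 days, of which 15 of 35 windows lay on chromosome 6, 22 of 40 on chromosome 8 and 5 of 45 on chromosome 5. In 8 windows it was more than 0.2 below on all 3 days. These lay singly on chromosomes 1, 2, 4, 7, 10, 13, 15 and X. They hold the lower genes Lrrn2 (chromosome 1) and Cyp2b10 (chromosome 7), and Rex2 (chromosome 4), which is described below. The elevated windows formed long stretches on these 3 chromosomes, taken as runs of windows whose 3 daily values averaged over 0.2. The longest such run on the other 17 chromosomes had 3 windows, on chromosome 12.

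On chromosome 6 the stretch ran from Ahcyl2 to Xpc and held 320 genes, with medians of 0.73, 0.67 and 0.80 on days 0, 3 and 7. Of them, 220 were higher on all 3 days and 8 lower, and the other 396 genes of the chromosome had medians of 0.20, 0.13 and -0.01. Its ends were sharp: the 4 windows before Ahcyl2 lay below 0.2 on all 3 days, and the window after Xpc did so on days 0 and 3. It holds Mest, its imprinted neighbour Copg2, Hk2, Mthfd2, Hnrnpa2b1 and the imprinted gene Nap1l5.

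On chromosome 5 the stretch ran from Bend4 to Bmp2k, 100 genes with medians of 0.72, 0.70 and 0.64, and 63 of them were higher on all 3 days. The other 816 genes of chromosome 5 had medians of 0.05, -0.05 and -0.13, so the rest of the chromosome was close to all genes. The stretch holds Gc, Pdcl2, Rassf6, Bmp2k, Afp and Pdgfra. On chromosome 8 the elevation was lower and broader: 380 genes from Atp7b to Gm10638 had medians of 0.54, 0.46 and 0.26, and the other 424 genes 0.27, 0.26 and 0.24. Ufsp2, Ankrd37, Pgls and Msmo1 lie in it.

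These 3 stretches held 800 genes, and 7 of the 12 separated genes that were higher lay in them, but none of the 12 that were lower. The stretches and these genes were picked from the same differences, so this contrast is partly fixed by the selection. Over the 14205 genes outside the stretches the median difference was 0.06, -0.02 and -0.07 on days 0, 3 and 7. Of those genes, 17.5% were higher and 19.6% lower on all 3 days, and 3.79% were higher at the unadjusted p of 0.05. In PKM2 knock-in minus wild type, which uses the same wild type arrays, the medians were 0.71, 0.63 and 0.95 over the chromosome 6 stretch and 0.86, 0.65 and 0.85 over the chromosome 5 stretch. Between PKM1 and PKM2 knock-in they were 0.05, 0.01 and -0.23 on chromosome 6 and -0.04, 0.01 and -0.01 on chromosome 5. Over the chromosome 8 stretch PKM2 knock-in minus wild type had medians of 0.27, 0.43 and 0.57. PKM1 minus PKM2 knock-in had 0.26, 0.03 and -0.34 there, and 0.10, -0.09 and -0.35 over the other genes of chromosome 8. Over the 14205 genes outside the stretches PKM1 minus PKM2 knock-in had 0.02, 0.05 and -0.20. The negative day 7 values on chromosomes 6 and 8 are therefore set on a shift also present outside the stretches.

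**Figure D4:**
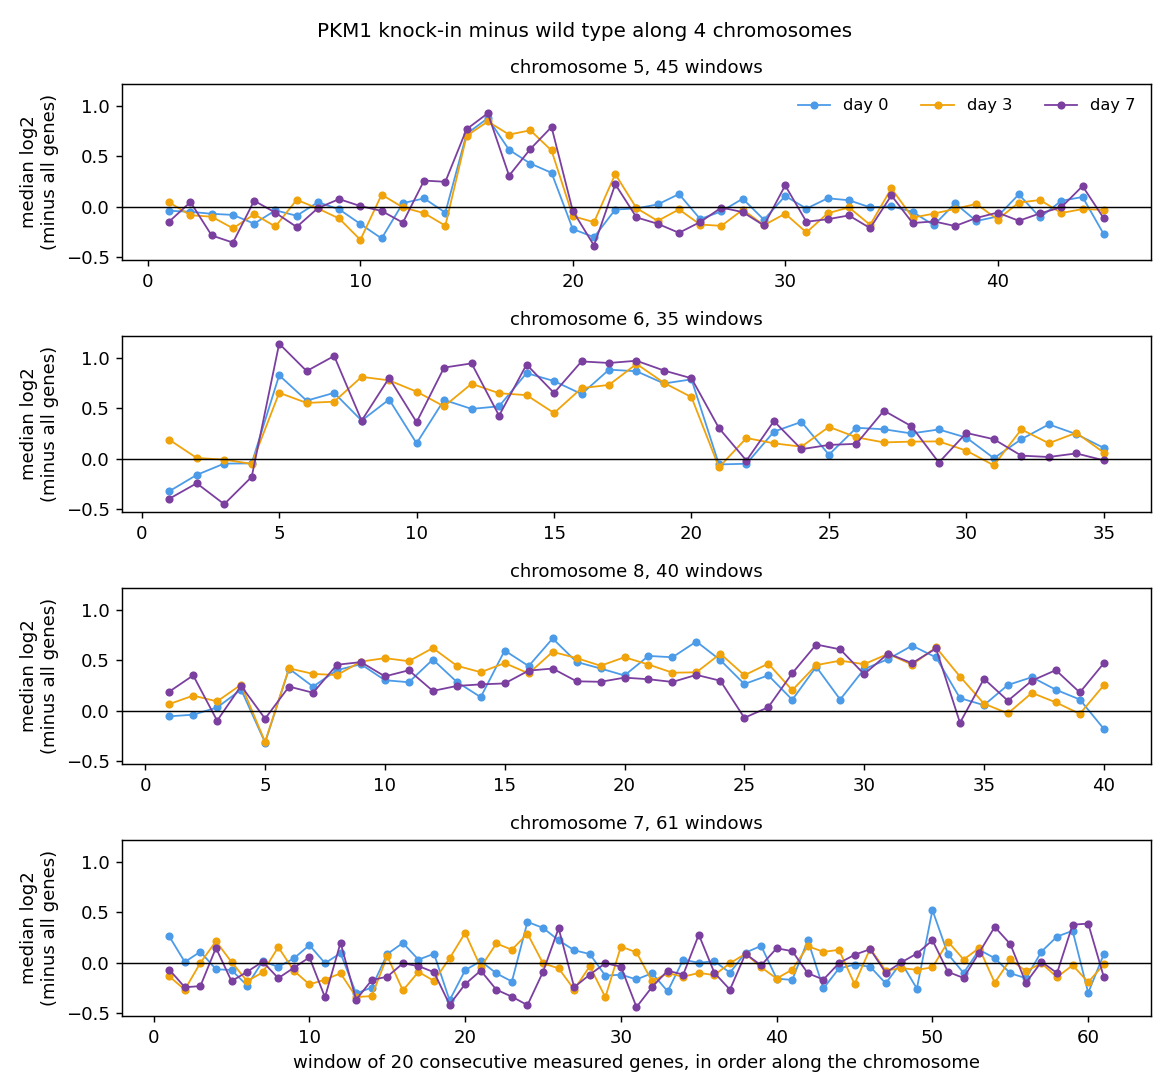
Median log2 difference, PKM1 knock-in minus wild type, of windows of 20 consecutive measured genes in chromosomal order, relative to the median of all genes that day, on chromosomes 5, 6 and 8 and on chromosome 7 for contrast. Windows 15 to 19 of chromosome 5 and 5 to 20 of chromosome 6 stand above their neighbours on all 3 days.

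Glycolysis and its transporters, the pathway of the edited enzyme, were on balance higher in the PKM1 knock-in line, though none of the 31 measured genes passed the adjusted test. Of these, 19 (61.3%) were higher and 6 (19.4%) lower on all 3 days, against 19.9% and 18.6% of all genes. The median difference was 0.53, 0.13 and 0.30 on days 0, 3 and 7, against 0.08, 0.00 and -0.05 over all genes, and 0.30 over the 3-day estimates of the 23 members that are not on chromosomes 5, 6 or 8. Without the wild type day 3 array the median of the 3-day estimates was 0.56, against 0.32 with it. The PKM2 knock-in line, set against the same wild type arrays, had daily medians of 0.64, -0.04 and 0.10 over this list, so it was higher on day 0 as well.

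Hk2, the hexokinase that traps glucose in the cell, gave 11.89, 12.31 and 11.77 in the PKM1 knock-in line against 10.55, 11.25 and 10.24 in wild type. Its 3 values did not overlap between the lines (1.31 ± 0.25, SE, n = 3 days, limma adjusted p = 0.162), and it lies in the chromosome 6 stretch, as does Bpgm, which makes bisphosphoglycerate (0.87 ± 0.19). The lactate dehydrogenases act just after pyruvate kinase: Ldha gave 15.97, 17.87 and 17.20 in the PKM1 knock-in line against 15.10, 17.23 and 16.10 in wild type. Ldhb, on chromosome 6 outside the stretch, gave 15.89, 15.19 and 15.84 in the PKM1 knock-in line against 14.33, 14.23 and 15.52 in wild type. Both were higher on 3 of 3 days (Ldha 0.87 ± 0.36, Ldhb 0.95 ± 0.29), and the ranges of both overlapped between the lines.

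The day of the widest gap differed between members. On day 0, the enolase gene Eno1 had 16.65 in the PKM1 knock-in line against 15.30 in wild type, and Slc16a3, a lactate exporter, 10.88 in the PKM1 knock-in line against 9.67 in wild type. On day 7, the glucose transporter gene Slc2a3 had 16.71 in the PKM1 knock-in line against 15.31 in wild type, and Tpi1, triosephosphate isomerase, 15.02 in the PKM1 knock-in line against 13.88 in wild type. Of the 6 members lower on all 3 days, Fbp2 above, Fbp1, the other fructose bisphosphatase (-1.75 ± 0.43), and Hk1 (-0.50 ± 0.27) had the estimates furthest from 0. Fbp1 and Fbp2 work against glycolytic flux, and 4.78, 5.47 and 5.06 were the Fbp1 values in the PKM1 knock-in line, with 6.11, 7.93 and 6.52 in wild type.

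Pathways that branch from glycolysis were also higher on some days, and part of their members lay on the elevated chromosomes. Of 22 genes of serine synthesis and folate one-carbon metabolism, 9 (40.9%) were higher on all 3 days, with daily medians of 0.66, -0.06 and 0.12. Over the 3-day estimates of the 15 members off chromosomes 5, 6 and 8 the median was 0.2. It was 0.30 over all 22, and 0.36 for PKM2 knock-in minus wild type. Mthfd2, the mitochondrial folate enzyme, gave 12.72, 11.51 and 11.90 in the PKM1 knock-in line against 11.46, 10.16 and 10.53 in wild type, with separate ranges (1.33 ± 0.20, SE, n = 3 days, limma adjusted p = 0.121). It lies in the chromosome 6 stretch, as does Aldh1l1 (0.92 ± 0.24), while Psat1, an enzyme of serine synthesis on chromosome 19, differed by 0.68 ± 0.25.

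The pentose phosphate pathway had daily medians of 0.23, -0.02 and 0.38 over 11 genes. The median of the 3-day estimates was 0.40 over all 11, above the 0.32 of glycolysis, and 0.02 over the 8 that lie off chromosomes 5, 6 and 8. Pgls on chromosome 8 (1.13 ± 0.26) and Rpia on chromosome 6 (0.81 ± 0.25) had the widest gaps, and G6pdx, the entry enzyme, differed by 0.56 ± 0.20. Genes of pyruvate entry and the tricarboxylic acid cycle had a median of 0.08 over 38 members, with Suclg1 (1.1 ± 0.24) in the chromosome 6 stretch and Dlst on chromosome 12 (0.75 ± 0.20) the furthest from 0. Oxidative phosphorylation had a median of 0.03 over 50 members, and 7 (14.0%) were higher and 0 lower on all 3 days, against 19.9% and 18.6% of all genes. Its daily medians were 0.29, -0.01 and -0.10, with all 50 higher on day 0 and 38 lower on day 7. Cytochrome c (Cycs, 1.11 ± 0.22), also in the chromosome 6 stretch, was the one furthest from 0, although 1 of its 3 probes pointed the other way. Cholesterol synthesis had daily medians of 0.47, 0.14 and 0.31 over 25 genes, 10 of them higher on all 3 days. For PKM2 knock-in minus wild type these medians were 0.48, -0.46 and 1.01.

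Hnrnpa2b1, one of the splicing repressors that favour the PKM2 exon, gave 14.79, 14.55 and 14.45 in the PKM1 knock-in line against 13.72, 13.83 and 13.40 in wild type (0.95 ± 0.22, SE, n = 3 days, limma adjusted p = 0.2) and lies in the chromosome 6 stretch. Over Pkm and its splicing regulators together the median was 0.13 for 9 genes.

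p53 target genes were lower in the PKM1 knock-in line: 13 of 19 (68.4%) were lower on all 3 days and 1 was higher, against 18.6% and 19.9% of all genes. The median was -0.60, -0.35 and -0.43 on days 0, 3 and 7. The PKM2 knock-in line, against the same wild type arrays, had medians of -0.33, 0.04 and -0.58, so it was lower on days 0 and 7 as well. None of the 19 lies on chromosomes 5, 6 or 8 and none passed the adjusted test. At the unadjusted p of 0.05, 5 were lower, as were 6.37% of all genes. p53 is the stress-responsive transcription factor that halts division or triggers cell death.

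Perp, a membrane protein gene linked to p53-dependent cell death, gave 12.34, 12.15 and 12.70 in the PKM1 knock-in line against 13.85, 13.83 and 14.04 in wild type. The PKM1 knock-in values all lay below the lowest wild type value, and the estimated difference was -1.51 ± 0.47 (SE, n = 3 days, limma adjusted p = 0.278). Ei24 gave 9.72, 10.55 and 9.94 in the PKM1 knock-in line against 10.88, 11.17 and 10.89 in wild type, again without overlap (-0.91 ± 0.19). Sesn1, a stress-induced regulator of growth signalling, differed by -0.86 ± 0.30. The member that went the other way was Pmaip1, which encodes the cell death protein NOXA, with 11.90, 12.49 and 12.57 in the PKM1 knock-in line against 10.92, 11.53 and 11.16 in wild type (1.12 ± 0.18, limma adjusted p = 0.134). Btg2 changed sides with time, at 9.72 in the PKM1 knock-in line against 11.04 in wild type on day 0, and at 11.51 in the PKM1 knock-in line against 10.47 in wild type on day 7.

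Genes of the 2-cell-like state, a rare state of ES cultures that resembles the early cleavage embryo, had low medians in the PKM1 knock-in line on days 0 and 3. Of 22 listed genes 10 were measured, and their median was -2.35, -2.29 and -0.43 on days 0, 3 and 7. Of the 10, 5 were lower at the unadjusted p of 0.05, as were 6.37% of all genes. The list was mixed, since 4 of the 10 were higher on day 0 and 2 on day 3. In PKM2 knock-in minus wild type, which shares the wild type arrays, the daily medians were -2.62, -2.48 and -1.19. Zscan4a gave 2.63, 3.43 and 5.98 in the PKM1 knock-in line against 7.5, 9.80 and 6.96 in wild type. Zscan4f gave 4.10, 3.62 and 7.35 in the PKM1 knock-in line against 8.0, 10.04 and 7.43 in wild type, and Zscan4c 3.71, 3.45 and 5.14 in the PKM1 knock-in line against 6.94, 9.25 and 6.48 in wild type. All 3 were well above background on every wild type array and, in the PKM1 knock-in line, on the day 7 array alone. Zscan4f differed from wild type by -0.08 there, while Zscan4c and Zscan4a were still lower.

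The fitted differences were -4.08 ± 1.0 for Zscan4a, -3.47 ± 1.16 for Zscan4f and -3.45 ± 0.88 for Zscan4c (SE, n = 3 days, limma adjusted p between 0.208 and 0.308). These estimates and their errors rest in part on PKM1 knock-in values below detection, on days 0 and 3. Members of the Zscan4 family are near copies of one another, so their probes may read shared transcripts and are not separate evidence. With only the genes well above background on all 6 arrays, the list median was 0.07, since the Zscan4 genes drop out.

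Pluripotency genes were at similar levels in both lines until day 7. Pou5f1, which encodes OCT4, gave 14.88, 15.04 and 13.05 in the PKM1 knock-in line against 14.84, 15.17 and 14.45 in wild type, and Sox2 13.19, 12.52 and 11.26 in the PKM1 knock-in line against 13.07, 12.70 and 12.53 in wild type. Over 17 core pluripotency genes the median difference was 0.03, 0.06 and -0.79 on days 0, 3 and 7, and 6 were more than 2-fold lower on day 7. Over 20 naive pluripotency genes it was 0.14, -0.17 and -0.79, and 7 were more than 2-fold lower on day 7, when 9.17% of all genes were.

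The widest day 7 gaps among the naive genes were those of Prdm14 (9.12 in the PKM1 knock-in line against 11.96 in wild type), Nr0b1 (12.22 in the PKM1 knock-in line against 14.78 in wild type) and Klf2 (12.60 in the PKM1 knock-in line against 14.57 in wild type). Rex2, a zinc finger gene in the lower window of chromosome 4, was 1 of 3 core list genes that were lower on all 3 days. It gave 9.93, 11.23 and 9.59 in the PKM1 knock-in line against 11.82, 12.03 and 12.10 in wild type (-1.74 ± 0.32, SE, n = 3 days, limma adjusted p = 0.147).

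Day 7 held the most differences over 2-fold between the lines, and extraembryonic endoderm genes were among the widest. On day 7, 1446 genes (9.63%) were more than 2-fold higher and 1377 (9.17%) more than 2-fold lower in the PKM1 knock-in line, against 577 (3.84%) and 1035 (6.89%) on day 0, and 644 (4.29%) and 959 (6.39%) on day 3. These are differences between 2 arrays, with no repeat and no p-value. In a mixture of cells, more cells of a type and more RNA per cell cannot be told apart.

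Visceral endoderm, the absorptive and secretory outer layer of the embryo and of embryoid bodies, expresses serum carrier proteins. Of 32 of its genes, 27 were more than 2-fold higher and 1 more than 2-fold lower in the PKM1 knock-in line on day 7, and the median difference was 0.08, -0.22 and 4.23 on days 0, 3 and 7. All 32 were well above background on day 7 in both lines, so the genes were on in wild type as well, at lower signal. The summed linear signal of the list on days 0, 3 and 7 was 271555, 171027 and 1086632 in the PKM1 knock-in line against 173019, 159030 and 196863 in wild type.

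Afp, alpha-fetoprotein, gave 2.55, 2.32 and 17.70 in the PKM1 knock-in line against 2.32, 2.32 and 9.10 in wild type, a 387-fold gap on day 7. Apom, an apolipoprotein gene, gave 6.67, 6.45 and 14.998 in the PKM1 knock-in line against 5.16, 6.21 and 6.58 in wild type. Fgb, a fibrinogen chain gene, gave 2.43, 2.54 and 14.00 in the PKM1 knock-in line against 2.32, 3.10 and 5.44 in wild type. In all 3 the day 7 array of the PKM1 knock-in line stood far above both earlier days. Cubn and Amn encode the 2 parts of an endocytic receptor of this layer: on day 7 Cubn had 14.21 in the PKM1 knock-in line against 6.66 in wild type, and Amn 12.94 in the PKM1 knock-in line against 5.89 in wild type.

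Parietal endoderm makes the basement membrane that lines the yolk sac. Over 21 of its genes the median was -0.49, -0.42 and 2.56 on days 0, 3 and 7, and 16 were more than 2-fold higher and 0 more than 2-fold lower on day 7. Lama1, a laminin chain gene, had 17.44 in the PKM1 knock-in line against 12.54 in wild type on day 7, and Col4a1, a type IV collagen gene, 15.93 in the PKM1 knock-in line against 12.05 in wild type. Pdgfra, a growth factor receptor gene of primitive endoderm, had 12.07 in the PKM1 knock-in line on day 7 and was not well above background in wild type, at least a 286-fold gap. Pth1r, a parathyroid hormone receptor gene of parietal endoderm, had 14.36 in the PKM1 knock-in line against 9.17 in wild type on that day.

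The water channel gene Aqp8 had the widest day 7 gap among the genes named, 15.43 in the PKM1 knock-in line against 5.77 in wild type (809-fold). Lgals2, a galectin gene, had 14.43 in the PKM1 knock-in line against 6.16 in wild type, and Krt23, a keratin gene, 11.76 in the PKM1 knock-in line, with wild type not well above background. On the low side, Pou4f2, a neuronal transcription factor gene, had 4.65 in the PKM1 knock-in line against 8.74 in wild type on day 7, after 8.82 in the PKM1 knock-in line against 8.91 in wild type on day 0.

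Hypoxia-inducible genes outside glycolysis had medians of 0.38, -0.23 and 1.60 on days 0, 3 and 7, and 13 of 18 were more than 2-fold higher in the PKM1 knock-in line on day 7. P4ha1 and P4ha2, subunits of collagen prolyl hydroxylase, had 10.85 and 13.40 in the PKM1 knock-in line against 7.86 and 10.72 in wild type on day 7. Plod2, which modifies collagen lysines, had 12.24 in the PKM1 knock-in line against 9.72 in wild type, and Bnip3, a mitophagy receptor gene, 14.51 in the PKM1 knock-in line against 12.40 in wild type. Ankrd37 (1.5 ± 0.48) and the transcription factor gene Bhlhe40 (1.07 ± 0.29) were higher on 3 of 3 days, on chromosomes 8 and 6. The named collagen-modifying enzymes were high on the array where collagen genes were high, and the part of the endoderm genes in this was not tested.

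Markers of fibroblasts, which can enter such samples as feeder cells, were measured for 23 genes. Their summed linear signal on days 0, 3 and 7 was 81488, 49230 and 79596 in the PKM1 knock-in line against 72835, 43549 and 102926 in wild type, and 22, 15 and 21 were well above background in the PKM1 knock-in line against 22, 19 and 22 in wild type. The median difference was -0.03, -0.49 and -0.48, with Loxl1, a collagen crosslinker gene (-1.26 ± 0.41), and Col6a3 (-1.15 ± 0.18) lower on 3 of 3 days. Col6a3 was not well above background on all 6 arrays, and its estimate shrank to -0.31 in the alternatives. Their part in the other results was not tested.

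**Figure D5:**
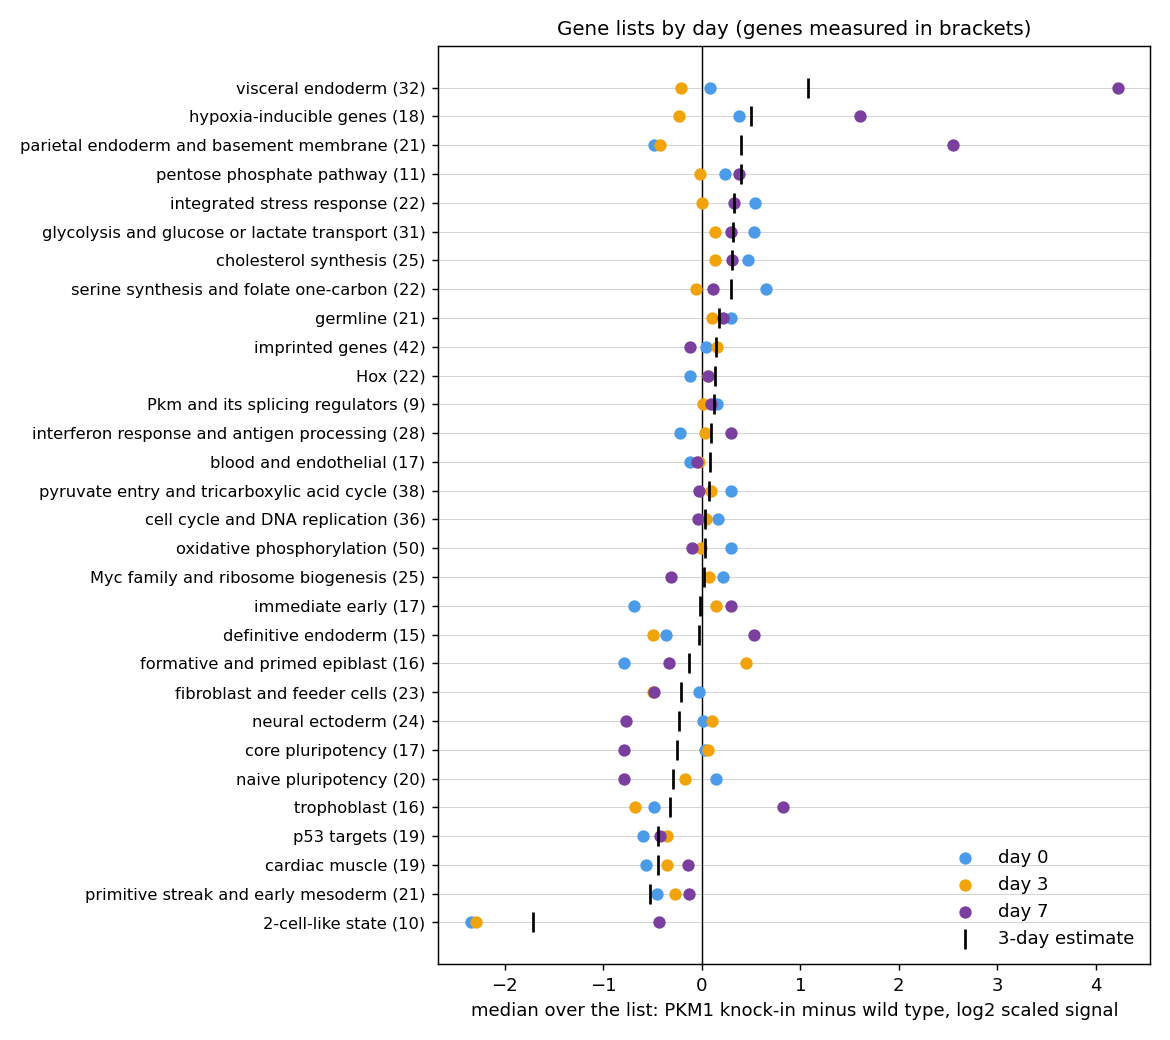
Median log2 difference, PKM1 knock-in minus wild type, over the measured members of 30 gene lists, with 1 point per day and a bar at the median of the 3-day estimates. Visceral endoderm reaches 4.23 on day 7 from -0.22 on day 3, while the 2-cell-like list lies at -2.35 and -2.29 on days 0 and 3.

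Some genes differed on a single earlier day. Hoxd11, a posterior patterning gene, had 10.48 on day 0 in the PKM1 knock-in line, where wild type was not well above background, and 2.65 and 2.80 on days 3 and 7. Cnfn, a cornified envelope gene, had 5.48, 15.08 and 4.98 in the PKM1 knock-in line against 5.52, 5.34 and 5.44 in wild type. On day 3 this is an 856-fold gap on 1 array, with the lines close together on the other days. Smcp, a sperm mitochondrial protein gene, was likewise highest on the day 3 array of the PKM1 knock-in line, at 9.60, with wild type at the floor. Lower on single days were Frk, a kinase gene (2.63 in the PKM1 knock-in line against 8.38 in wild type on day 0), and Slc25a18, a glutamate carrier gene (2.63 in the PKM1 knock-in line against 8.4 in wild type on day 3).

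Among 42 imprinted genes 10 were higher and 9 lower on all 3 days, shares of 23.8% and 21.4% near the 19.9% and 18.6% of all genes. In 5 the values lay above those of wild type without overlap and in 1 below, where 4.9% and 5.12% of all genes did. The members Mest, Nap1l5 (not well above background in wild type) and Copg2 (1.1 ± 0.22) lie in the chromosome 6 stretch. Peg3, an imprinted zinc finger gene of chromosome 7, gave 9.35, 9.75 and 11.99 in the PKM1 knock-in line against 7.59, 7.53 and 9.99 in wild type (1.99 ± 0.62, SE, n = 3 days, limma adjusted p = 0.278). Among 21 germline genes 6 (28.6%) were higher and 2 (9.52%) lower on all 3 days, against the same 19.9% and 18.6% of all genes. Rhox5, a homeobox gene, gave 12.81, 14.67 and 15.90 in the PKM1 knock-in line against 11.51, 14.29 and 9.46 in wild type, and Sycp3, a synaptonemal complex gene, 9.09, 8.81 and 9.67 in the PKM1 knock-in line against 7.52, 8.0 and 6.61 in wild type.

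Of 19 cardiac muscle genes, 5 (26.3%) were lower and 2 (10.5%) higher on all 3 days, against 18.6% and 19.9% of all genes. Without overlap 4 were lower, as were 5.12% of all genes. These were led by Ttn, which encodes titin, with 5.16, 6.72 and 5.48 in the PKM1 knock-in line against 7.15, 8.0 and 8.58 in wild type (-2.12 ± 0.42, SE, n = 3 days, limma adjusted p = 0.162). Of 24 neural ectoderm genes, 6 (25.0%) were lower and 2 (8.33%) higher on all 3 days, near or below those shares. On day 7, 8 of them were more than 2-fold lower, as were 9.17% of all genes. Olig2, a neural progenitor factor gene, gave 7.84, 8.51 and 6.64 in the PKM1 knock-in line against 9.16, 9.23 and 8.83 in wild type (-1.41 ± 0.37). Primitive streak and early mesoderm genes had 8 of 21 lower on all 3 days (38.1%) and daily medians of -0.45, -0.27 and -0.13. None of these members passed the adjusted test.

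The test of PKM1 against PKM2 knock-in, over the same 15014 genes, called 0 genes in limma. Mest differed between the knock-in lines by -0.19 ± 0.31 and Nudt12 by -0.05 ± 0.27 (SE, n = 3 days, limma adjusted p = 0.852 and 0.956). PKM2 knock-in minus wild type called 2 genes, Mest (6.83 ± 0.31) and Nudt12 (4.02 ± 0.27), against the same 3 wild type arrays, so this is no second measurement of the wild type side. For Lrrn2 the difference between the knock-in lines was -1.46 ± 0.26, with the PKM2 knock-in line at 7.22, 5.96 and 8.43, between the other 2 lines on each day (limma adjusted p = 0.599). On day 7, Afp had 6.31 and Aqp8 9.12 in the PKM2 knock-in line, and its visceral endoderm list had a summed linear signal of 236140, whereas the PKM1 knock-in line had 1086632 and wild type 196863.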

How the data were processed

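RNA of 3 ES lines on 3 days was hybridised to 9 single-colour Agilent arrays, 1 per line and day, after Cy3 labelling of 0.1 µg total RNA, per the labels' protocols. The deposited files hold spot intensities, the processed signal that Agilent Feature Extraction 10.10 gave, per the submitters' processing notes. The authors' deposited value table of linear intensities differed from that signal by at most 0.497%.

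Control and outlier-flagged spots were left out. Each array was scaled to its 75th percentile, floored at 5 and put on the log2 scale. A probe had to be well above background on at least 3 arrays, and each gene was read from its brightest such probe on average. The fit used limma 3.58.1 in R 4.3.3 with terms for line and day over all 9 arrays (4 residual degrees of freedom, prior 2.60), eBayes and Benjamini-Hochberg adjustment at 0.05, tested on simulated data. Gene names came from RefSeq accessions (GRCm38.p6 table). The number of arrays limits the precision.

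Members and gene lists were chosen with earlier results of these data known. Named genes were those called, then, up to 12 in each direction, non-overlapping genes ranked by their smallest daily difference, up to 4 members per list in the direction of its median (6 for a list described by day), and the 8 widest differences per day and direction; a few of these genes are not reported here. Replicate numbers follow accession order, and day is the block. Alternatives were the background correction, scaling, filter, floor, probe choice, variance model, blocks and omission of days or arrays.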

Additional observations from a re-analysis of the deposited data

Results flagged for a closer look

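Several gene lists had medians (PKM1 knock-in minus wild type, log2) of opposite sign on different days, each day being 1 array per line, so these differences were not tested. The visceral endoderm median was 4.44 higher on day 7 than on day 3, and the parietal endoderm median 3.05 higher on day 7 than on day 0. The hypoxia-inducible list was 1.83 higher on day 7 than on day 3, the trophoblast list 1.51 higher and the definitive endoderm list 1.03 higher. The formative epiblast list was 1.23 higher on day 3 than on day 0. From day 0 to day 7 the immediate early list was 0.99 higher and the interferon list 0.51 higher, while the Myc and ribosome biogenesis list was 0.53 higher on day 0 than on day 7.

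Among probes with no gene symbol, 2 of 14480 were called. A_30_P01018723, named for the region chr3:93162669-93163114 (mm9), gave 5.70, 5.88 and 5.84 in the PKM1 knock-in line against 2.32, 3.23 and 3.13 in wild type, where it was not well above background, so it was at least 3.49-fold higher in the PKM1 knock-in line. The fitted 2.91 ± 0.24 (SE, n = 3 days, limma adjusted p = 0.0331) is taken against values near the floor. A_55_P1960246 gave 7.98, 9.50 and 8.56 in the PKM1 knock-in line against 11.10, 11.90 and 11.54 in wild type (-2.84 ± 0.23, limma adjusted p = 0.0331).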

How the results depend on the processing

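The number of genes called by limma was 2, and it was 2 without a day term (no replicate block), 5 with normexp, 4 at an adjusted p of 0.1, 1819 at an unadjusted p of 0.05, and 1 each with no filter, with genes well above background on all 6 arrays, with a floor of 1 and with the slide as a block. Fitting only the 6 arrays gave 0 calls, with 2157 genes at an unadjusted p of 0.05. Leaving out a day or an array gave between 0 and 2 calls. Mest stayed between 5.11 and 7.01 and was called in 19 of 24 settings, Nudt12 between 1.49 and 4.23 and in 8 of 23. The genes with normexp that the main setting did not call were Ltb4r1, Rpl39l, Zfp951 and Zfp981. With parts left out, the glycolysis median ran from 0.25 to 0.56, the p53 target median from -0.67 to -0.32 and that of chromosome 6 from 0.29 to 0.37, or 0.28 with the percentile over detected probes. The 2-cell-like median was 0.073 with genes well above background on all 6 arrays, as fewer genes were then measured. Without the PKM1 knock-in day 7 array the visceral endoderm median of the 3-day estimates was -0.31, against 1.08 with it. Of the genes named in the text Ddx3y alone changed direction in the alternatives run, at -0.39 without the PKM1 knock-in day 7 array and 2.45 without its day 0 array. The causes of these moves were not tested, and probes near the floor have only a bound.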
